A study of Arabidopsis thaliana with 6 samples.

Results

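AT1G57630, AT1G72890 and AT1G72900 are 3 Arabidopsis thaliana genes that encode proteins with a Toll/interleukin-1 receptor (TIR) domain. Each was measured by a probe set of its own, and they are 3 of 13286 loci that could be paired with a probe set of 1 gene, among 22746 probe sets in all. They were chosen by name with their higher signal in the mutant sni1 already known, so their genotype differences are given as a description, without a test. Whole plants of the wild-type accession Col-0 were compared with sni1 in the Col-0 background, a mutant made by radiation whose lesion the labels assign to At4g18460, with 3 ATH1 arrays per genotype. Seeds of both genotypes had 3 days of cold at 4 °C, and plants were grown in a growth room on soil, at 22 °C on average, to growth stage 3.90. Whether the 3 samples of a genotype were separate sowings is not stated in the labels, so a p-value reflects only the spread among these samples, possibly a technical one. In whole-plant RNA, a change in the number of cells that express a gene and a change in RNA per cell cannot be told apart.

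In plants, TIR domains sit at the amino-terminal end of many intracellular immune receptors, where they are joined to a nucleotide-binding (NBS) domain and to leucine-rich repeats (LRR) that take part in recognising pathogen proteins. When such a receptor is activated, its TIR domain works as an enzyme that breaks down NAD+ and makes small signalling molecules, which are bound by the lipase-like protein EDS1 together with PAD4 or SAG101 and engage helper receptors of the ADR1 and NRG1 families. Arabidopsis also has shorter proteins with a TIR domain alone or with TIR and NBS domains only, and the 3 genes described here are of this short kind. The SNI1 protein is known for holding back systemic acquired resistance, in which a local infection primes defence in the rest of the plant.

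All values are signal intensities computed by MAS5 and scaled by the authors to a common trimmed mean per array. Array medians lay between 34.6 and 40.8. Precision is limited by the number of arrays. Samples of the same replicate number deviated together from their genotype means (correlations of 0.58 to 0.71 over probe sets, themselves not independent). A second fit, in which the replicate number is a block, is therefore given beside each result whose call it changes. The gene that the labels name for the mutation, AT4G18460, ran from 37.2 to 41.03 in wild type and from 28.2 to 44.3 in sni1, with overlap, and the SNI1 gene was not analysed here. Of the marker lists for the labelled tissue, 3 of 9 leaf genes had a probe set in the annotation used, which named no gene for 8730 of 22746 probe sets. The summed signal of these 3 leaf genes ran from 13481 to 20101 in wild type and from 11965 to 14708 in sni1. All 3 leaf genes were lower in sni1 within each replicate number. LHCB4.2, a light-harvesting protein gene, fell with the block, as did 3.88% of all tested probe sets. It ran from 3906 to 5268 in wild type and from 2862 to 3377 in sni1 (log2 difference -0.47, limma adjusted p = 0.549, and 0.0125 with the block). The root genes with a probe set, 2 of 8, summed to between 35.5 and 40.1 in wild type and between 23.0 and 43.3 in sni1. Both root genes lay under the filter on low signals. EXPA7 was lower in sni1 without overlap, as were 6.63% of the probe sets above the filter, while the genotypes of EXPA18 overlapped. The flower genes had no probe set of their own in that annotation. For an actin control pair the 3'/5' signal ratio, which rises as RNA degrades, ran from 2.58 to 4.75 in wild type and from 3.29 to 7.61 in sni1, and that of GAPDH from 1.12 to 1.75 and from 1.17 to 1.51. The part of tissue makeup and RNA integrity in the results below was not tested.

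AT1G57630, which encodes a TIR-only protein, stood near the lower end of the scale in wild type and well above it in sni1. Its signal was 3.44, 3.98 and 3.07 in wild-type replicates 1, 2 and 3 and 25.1, 71.9 and 46.1 in the sni1 replicates. The genotypes did not overlap, the lowest sni1 array standing 6.32 times above the highest wild-type array. The wild-type mean was 3.49 ± 0.456, and that of sni1 was 47.7 ± 23.4 (SD, n = 3 each). The wild-type values were all below 4.31, the highest of the arrays' 10th percentiles, that of sni1 replicate 1. The wild-type arrays' own 10th percentiles were 3.75, 3.78 and 1.81, so only wild-type replicate 1 lay under its own. The values used here have no detection calls, so the size of the difference rests on values near the bottom of the scale. On the log2(value + 2.87) scale, the added constant being the 10th percentile over the table, the difference was 2.88 ± 0.42 (SE). It was 1.86 with the 25th percentile as the constant and 3.65 with none.

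AT1G72900, a TIR-domain gene of a chromosome 1 cluster, had signals of 84.4, 32.5 and 27.2 on the wild-type arrays and of 185.9, 115.3 and 85.9 on the sni1 arrays. The lowest sni1 array was only 1.02 times the highest wild-type array, so the genotypes barely separated when replicate numbers were ignored. Within each number, sni1 was higher by 2.20, 3.55 and 3.16 times. Replicate 1 was high in both genotypes, with a mean over both of 135 against 73.9 in replicate 2 and 56.5 in replicate 3. The genotype means were 48.0 ± 31.6 and 129 ± 51.4 (SD, n = 3 each), a log2 difference of 1.47 with an SE of 0.43 without and 0.15 with the replicate block. It ran from 1.17 without wild-type replicate 3 to 1.95 without wild-type replicate 1.

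AT1G72890, its direct neighbour in the gene order of the TAIR10.1 assembly with 0 protein-coding genes in between, encodes a TIR-NBS protein and differed least. Its signal was 46.0, 58.6 and 47.4 on the wild-type arrays and 79.3, 97.9 and 74.7 on the sni1 arrays. All sni1 arrays were above all wild-type arrays, by at least 1.28 times. The ratios within replicate numbers lay close together, at 1.72, 1.67 and 1.58. The means were 50.7 ± 6.86 and 84.0 ± 12.3 (SD, n = 3 each), a log2 difference of 0.70 with an SE of 0.18 without and 0.14 with the block.

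**Figure D1:**
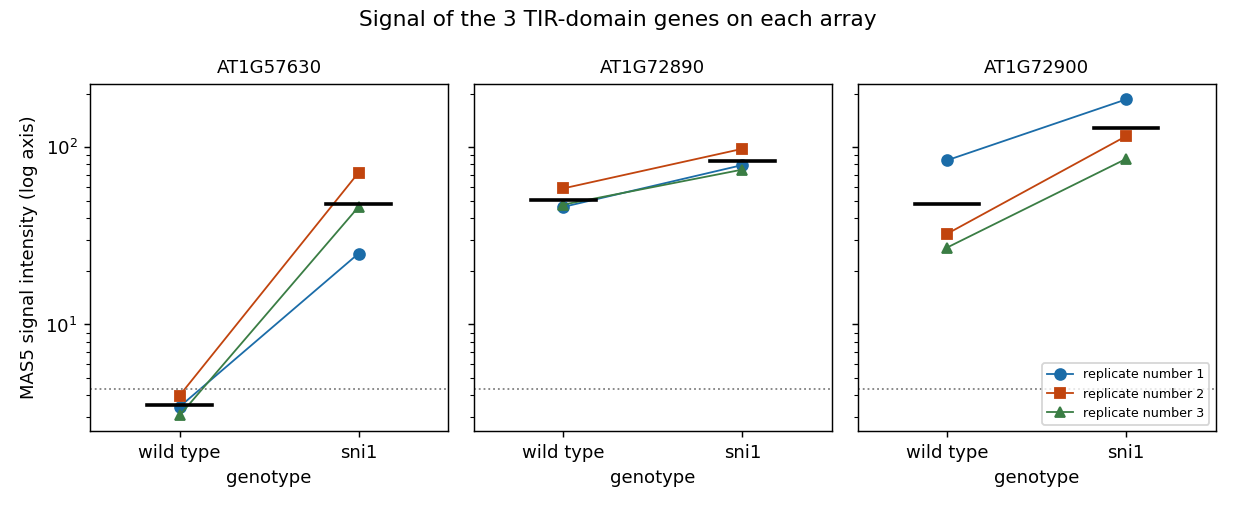
MAS5 signal intensity (log axis) of the 3 genes on each of the 6 arrays, wild type at left and sni1 at right of each panel, with lines joining arrays of the same replicate number and black bars for genotype means. The dotted line is the highest 10th percentile of any array (4.31, that of sni1 replicate 1), under which all wild-type values of AT1G57630 lie. AT1G72900 starts highest in replicate 1 of both genotypes.

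Replicate 2 was the highest sni1 array for AT1G57630 and AT1G72890, and replicate 1 for AT1G72900. The ratios of AT1G57630 within replicate numbers were 7.32, 18.1 and 15.01, and since they divide by values near the bottom of the scale they are not ranked against those of the other genes. Of 13648 probe sets above the filter on low signals (a mean of at least 24.5), 9 had a larger log2 difference than AT1G57630, 123 a larger one than AT1G72900 and 525 a larger one than AT1G72890. All 3 genes passed this filter, AT1G57630 with a mean over all arrays of 25.6, which it reached only through sni1. All 3 also had genotypes without overlap and higher in sni1, as had 7.73% of tested probe sets. In the limma fit of all tested probe sets without the block, 1 of the 3 (AT1G57630) was past an adjusted p of 0.05, a threshold that 0.550% of probe sets passed (0.520% higher in sni1). With the block all 3 were past it, as were 6.15% of probe sets higher and 3.88% lower in sni1. Without the block and with 1 array left out, AT1G57630 was past the threshold only when that array was wild-type replicate 3, and it lay under the filter without sni1 replicate 2 or 3. With the block and both arrays of replicate 2 left out, AT1G57630 lay under the filter and AT1G72890 was not past the threshold. Since the genes were picked for this contrast, nothing is read from these counts.

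The other TIR genes of the cluster that holds AT1G72890 and AT1G72900, from AT1G72840 to AT1G72950, were not used to choose them. Their list was still drawn up around these genes with earlier results of these data known. Of 9 further genes listed for this interval 7 had a probe set in the annotation used and 3 passed the filter. With the replicate block 2 of these 3 rose and without it 0 (limma), against 6.15% and 0.520% of all tested probe sets. Without the block 1 of the 3 had an unadjusted limma p under 0.05, as had 1159 of all 13648 tested probe sets, either direction. AT1G72940, a TIR-NBS gene, had signals of 50.6, 44.2 and 38.7 on the wild-type arrays and 86.7, 70.7 and 80.6 on the sni1 arrays. Its genotypes did not overlap, and the log2 difference was 0.80 ± 0.17 (SE; limma adjusted p = 0.145, and 0.00693 with the block). Over the alternatives that changed 1 choice at a time its adjusted p ran from 0.00693 to 0.483.

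AT1G72920, a TIR-only gene, had signals of 43.0, 29.4 and 10.8 on the wild-type arrays and 73.4, 66.4 and 26.2 on the sni1 arrays. It was higher in sni1 within each replicate number, while the genotypes overlapped because replicate 3 was low in both. The log2 difference was 0.97 with an SE of 0.51 without and 0.19 with the block (limma adjusted p = 0.706 and 0.00897), and it ran from 0.47 to 1.40 with 1 array left out. AT1G72920 did not pass with the block when both replicate 2 arrays were left out (limma adjusted p = 0.0825). AT1G72870, a TIR-NBS gene, passed in neither fit, at 29.2, 37.2 and 10.1 on the wild-type arrays and 35.2, 31.6 and 21.3 on the sni1 arrays (log2 difference 0.31, limma adjusted p = 0.926, and 0.511 with the block).

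The other 4 measured genes of the cluster lay under the filter and were not tested in the main comparison. AT1G72840 ran from 1.18 to 12.3 in wild type and from 9.87 to 30.2 in sni1, and AT1G72950 from 4.48 to 27.6 and from 21.2 to 35.9. AT1G72850 ran from 11.9 to 15.7 in wild type and from 7.23 to 14.7 in sni1, and AT1G72860 from 15.9 to 24.8 and from 16.6 to 27.1. The genotypes overlapped in each of these 4 genes, although AT1G72840 was higher in sni1 within each replicate number.

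**Figure D2:**
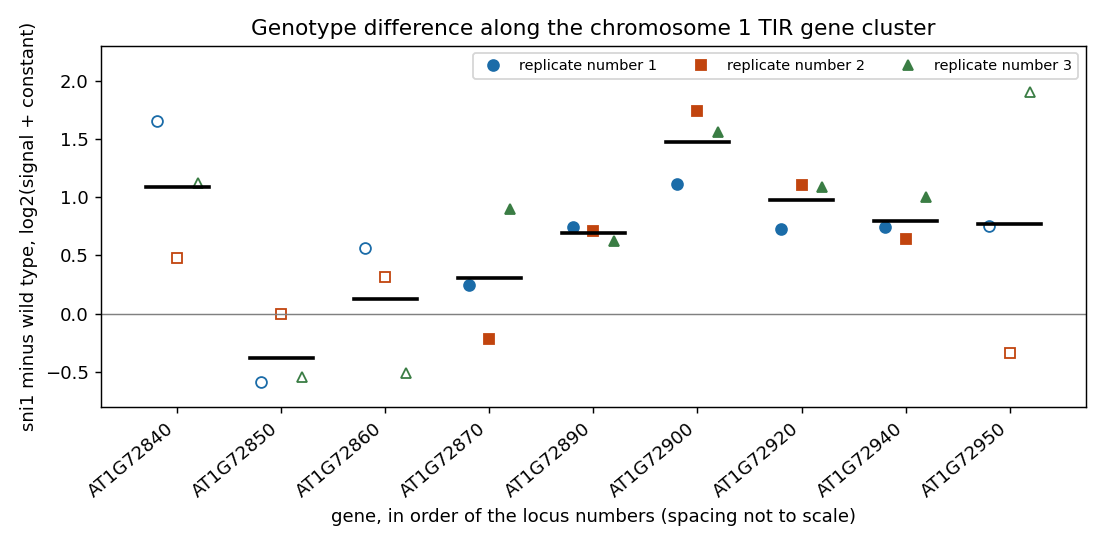
Difference between sni1 and wild type, on the log2(value + 2.87) scale, of the 9 measured genes of the chromosome 1 TIR cluster in the order of their locus numbers. Each point is 1 replicate number, black bars are means, and open points mark genes under the filter. From AT1G72890 to AT1G72940 all points lie above 0, as do those of AT1G72840, which lies under the filter. AT1G72850 to AT1G72870 and AT1G72950 have points on both sides of 0 or below it.

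Genes flanking the TIR genes were chosen by position after the values of the TIR genes had been seen. Only loci with a probe set of 1 gene in the annotation used were taken, so other loci lying between them were not seen. Of the 10 nearest such loci outside the TIR list around the cluster, 5 on each side, 7 were tested. Of these, 0 passed without or with the block, with log2 differences from -0.31 to 0.55. Around AT1G57630 the 10 nearest such loci had 7 tested genes, and 0 passed in either fit, with log2 differences from -0.37 to 0.27. At an unadjusted p under 0.05 in the fit with the block there was 1 gene at each place, AT1G73040 (0.0416) beside the cluster and AT1G57600 (0.0460) beside AT1G57630. The share of all tested probe sets under 0.05 in that fit was not counted, so nothing is read from these. In the fit without the block 0 of the flanking genes were under 0.05, against 1159 of all 13648 tested probe sets. Of all tested probe sets 0.550% passed without the block, and 6.15% higher and 3.88% lower with it, so a count of 0 among so few genes is near that background.

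The TIR genes nearest to AT1G57630 in locus number had low signals throughout. AT1G57650 ran from 1.23 to 3.91 in wild type and from 2.17 to 10.3 in sni1, and AT1G57670 from 8.18 to 18.4 and from 2.38 to 18.8. AT1G57830 ran from 13.5 to 27.8 in wild type and from 17.8 to 22.8 in sni1, and AT1G57850 from 15.6 to 28.4 and from 8.21 to 24.0. All 4 lay under the filter with overlapping genotypes, so the difference seen in AT1G57630 had no tested counterpart among them.

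Across the rest of the TIR family, the genes past the threshold in either fit were all higher in sni1. The list held 132 TIR genes other than the 3 (the cluster, the genes near AT1G57630, genes listed as other TIR-only and TIR-NBS genes, and the TIR-NBS-LRR receptors). Of the 132, 91 had a probe set of their own in the annotation used and 39 passed the filter. Without the block 1 rose and 0 fell, against 0.520% and 0.0293% of all tested probe sets. That gene, AT2G20142, passed the filter only through sni1, and in the fit without the filter 0 rose, so nothing is read from this count. AT2G20142 is also among the genes counted below as rising with the block and as higher without overlap. With the block 6 of the 39 rose (15.4%) and 0 fell, against 6.15% and 3.88% of all tested probe sets. At an unadjusted p under 0.05 the lower genes numbered 1 in either fit. The share of all tested probe sets that was lower at this cutoff was not counted, so nothing is read from that number. Without the block 8 of the 39 were under 0.05 in either direction, as were 1159 of all 13648 tested probe sets. The median log2 difference of the 39 was 0.15, against -0.01 over all tested probe sets, with 26 above 0 and 13 below. The genotypes did not overlap in 11 of the 39, with 9 higher and 2 lower in sni1, against 7.73% and 6.63% of all tested probe sets.

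AT2G20142, a TIR-domain gene on another chromosome, was the one that rose without the block. Its signal was 23.5, 15.4 and 10.998 on the wild-type arrays and 64.2, 52.1 and 73.4 on the sni1 arrays. All sni1 arrays were above all wild-type arrays, and the means were 16.7 ± 6.35 and 63.2 ± 10.7 (SD, n = 3 each). All its wild-type values lay under 24.5, so AT2G20142 passed the filter only through sni1. The log2 difference was 1.80 ± 0.28 (SE; limma adjusted p = 0.0428, and 0.00111 with the block). With 1 array left out it stayed between 1.56 and 2.05 and passed only without wild-type replicate 1. Without any other single array, without the constant and without the filter, the limma adjusted p of AT2G20142 lay between 0.0517 and 0.216.

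The TIR-NBS-LRR receptors, the full-length class, included 3 genes of 28 tested that rose with the block and 0 without it, against 6.15% and 0.520% of all tested probe sets. In the fit without the block 6 of the 28 had an unadjusted p under 0.05, as had 1159 of all 13648 tested probe sets, either direction. Of the 6, 1 was lower in sni1 (AT5G38340). AT3G44630 stood at 79.3, 99.2 and 57.7 on the wild-type arrays and at 134.8, 157.4 and 147.0 on the sni1 arrays, a log2 difference of 0.90 (limma adjusted p = 0.187, and 0.00335 with the block). AT5G58120, known as DM10 for its part in hybrid necrosis, stood at 29.1, 28.7 and 17.4 and at 42.2, 58.2 and 33.6 (0.76, adjusted p = 0.479 and 0.0358). The genotypes of both genes did not overlap.

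AT1G63880 stood at 188.8, 158.2 and 125.7 on the wild-type arrays and at 221.5, 224.7 and 196.4 on the sni1 arrays, again without overlap (log2 difference 0.45, limma adjusted p = 0.568, and 0.0336 with the block). AT5G58120 and AT1G63880 no longer passed with the block when no filter was applied (adjusted p = 0.0998 and 0.0599), or when both arrays of replicate 2 or of replicate 3 were left out. Among the tested receptors the 2 with the lowest differences were AT5G38340 (35.4 to 39.8 in wild type, 22.0 to 27.6 in sni1, log2 difference -0.53) and AT5G22690 (31.6 to 38.4 and 16.4 to 27.3, -0.52). Their genotypes did not overlap, but neither passed in either fit (limma adjusted p = 0.498 and 0.672 without, 0.133 and 0.224 with the block). The median of the 28 was 0.06.

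Among the tested TIR genes outside the cluster, the highest differences that passed in neither fit were those of AT1G51270 (0.62) and AT1G66090 (0.53; limma adjusted p = 0.658 and 0.724 without, 0.137 and 0.117 with the block). AT1G51270 had 2 probe sets, which differed. The brighter one ran from 26.6 to 48.6 in wild type and from 39.7 to 77.5 in sni1 with overlap. The dimmer one, under the filter, ran from 2.60 to 16.3 in wild type and from 24.98 to 40.7 in sni1 without overlap, a log2 difference of 1.79 that did not pass in a fit without the filter (limma adjusted p = 0.345, and 0.0687 with the block).

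**Figure D3:**
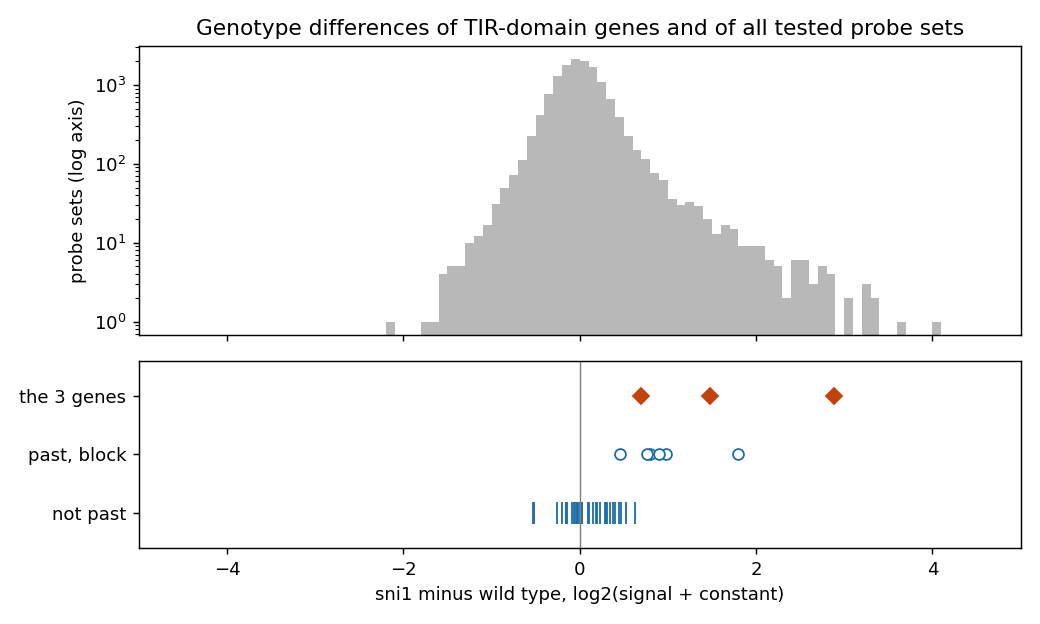
Upper panel, number of probe sets (log axis) by difference between sni1 and wild type on the log2(value + 2.87) scale, over 13648 tested probe sets. Lower panel, on the same axis, the 39 other tested TIR genes that did not pass (bars) or passed with the replicate block (open circles, 6 genes, all above 0) and the 3 genes described (diamonds, at 0.70, 1.47 and 2.88).

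Of 16 genes listed for TIR signalling, some of them for co-chaperones of immune receptors, 4 had a probe set of their own in the annotation used. Of these 4 genes, 3 passed the filter, and 2 rose with the block and 0 without it (limma), against 6.15% and 0.520% of all tested probe sets. Without the block 2 of the 3 had an unadjusted limma p under 0.05, as had 1159 of all 13648 tested probe sets, either direction. SAG101, the lipase-like partner of EDS1, stood at 40.4, 39.2 and 19.9 on the wild-type arrays and at 77.0, 70.1 and 66.7 on the sni1 arrays. The SAG101 genotypes did not overlap, with a log2 difference of 1.097 (limma adjusted p = 0.211, and 0.00496 with the block). SGT1A, a co-chaperone of immune receptors, stood at 171, 145 and 102 on the wild-type arrays and at 286, 252 and 161 on the sni1 arrays. It was higher in sni1 within each replicate number although the genotypes overlapped (log2 difference 0.72, limma adjusted p = 0.495, and 0.00189 with the block).

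AT3G48080, the EDS1 copy called EDS1B, showed no such pattern. It stood at 72.7, 58.3 and 26.1 on the wild-type arrays and at 82.9, 55.8 and 30.1 on the sni1 arrays, following the replicate number rather than the genotype (log2 difference 0.10, limma adjusted p = 0.979, and 0.735 with the block), and its sign turned with wild-type replicate 3 or sni1 replicate 1 left out (-0.31 and -0.22). Since EDS1 has a closely similar sequence, its transcripts may add to this signal. The fourth gene, AT5G66890 of the NRG1 family, lay under the filter, from 14.03 to 25.6 in wild type and from 11.3 to 19.5 in sni1. EDS1 itself, PAD4 and the ADR1 genes had no probe set of their own in the annotation used and were not analysed here.

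Genes whose profile over the 6 arrays was most like that of each TIR gene were found by the root mean square difference between log2 profiles centred on their means. For AT1G57630 these were AT1G65500 (0.297), AT2G18690 (0.298) and CHI, a putative chitinase (0.328). For AT1G72890 they were AT1G69450 (0.0847), AT4G28400 (0.0866) and AT2G46140 (0.0883), and for AT1G72900 AT5G10695 (0.282), AT3G25610 (0.306) and the zinc finger gene STZ (0.314). Between the TIR genes themselves the value was 0.739 for AT1G72890 and AT1G72900, 1.08 for AT1G57630 and AT1G72900 and 1.15 for AT1G57630 and AT1G72890. The nearest genes were picked for the smallest values over all tested probe sets of 1 gene. Their smaller values therefore follow from that choice, and nothing is read from the contrast. The measure counts both the size of the genotype difference and the differences between replicates, so the neighbours of AT1G72900 share its high replicate 1, with STZ at 160.5, 86.6 and 70.3 on the wild-type arrays and 278.6, 180.7 and 133.7 on the sni1 arrays.

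**Figure D4:**
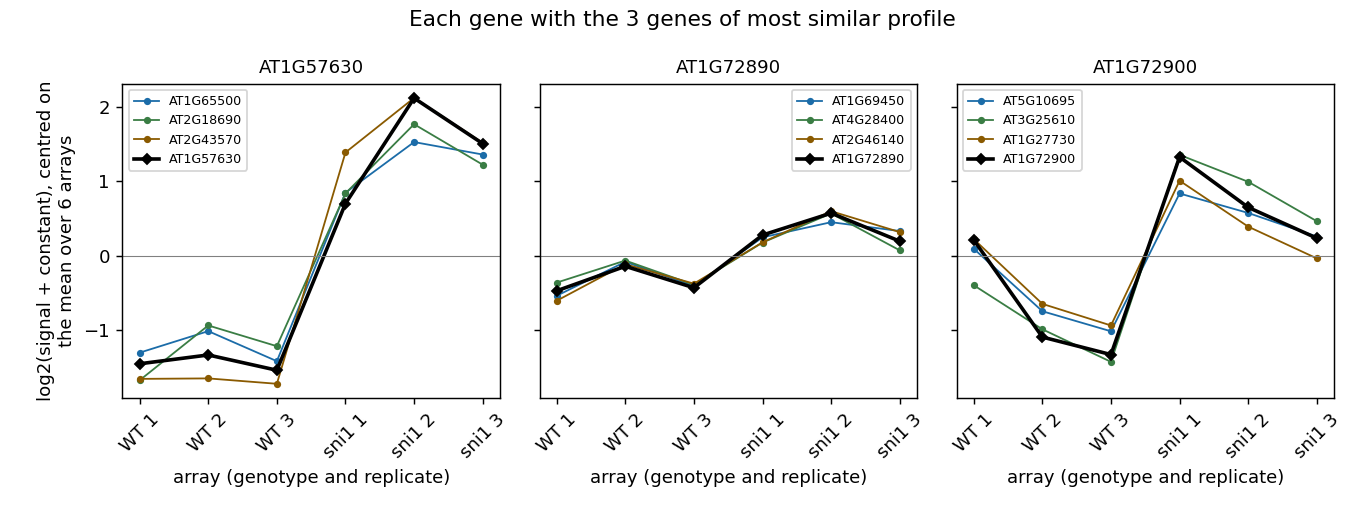
Profiles over the 6 arrays (genotype and replicate on the x axis) on the log2(value + 2.87) scale, centred on the mean over arrays, of each of the 3 genes (black diamonds) and of the 3 named genes nearest to it. AT1G57630 and its nearest genes peak in sni1 replicate 2, and AT1G72900 and its nearest genes stand highest in replicate 1 of both genotypes.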

How the data were processed

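Per the submitters' processing notes, the deposited intensity values were computed with MAS5 from Affymetrix ATH1 arrays. The MAS5 version and parameters were not given in the sources used here. The deposited values have a mean of 100.01 per array after trimming 2% at each end. Probe sets were named through the platform annotation and TAIR10.1 locus identifiers (13513 with 1 gene, 503 with several, 8730 with none), and 64 control probe sets were left out. Where several probe sets named 1 locus, that with the highest mean stood for it. Probes of a gene may also bind transcripts of near-identical relatives, and probe sequences were not used here.

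Values were transformed as log2(value + 2.87), probe sets with a mean under 24.5 (the 40th percentile) were left out, and genotypes were compared with limma 3.58.1 in R 4.3.3 (lmFit, eBayes with trend, two-sided, Benjamini-Hochberg over 13648 probe sets, threshold 0.05). The procedure was run on simulated data with shared replicate effects taken from these arrays. That run checked the code and does not bear on the choice between the fits with and without the block. Replicate numbers in the titles paired the samples by the data (same-numbered correlations of 0.66, 0.58 and 0.71, others from -0.53 to -0.05), not by a statement in the labels. Deviations from a genotype mean cancel over its arrays, so positive same-numbered values push the others to negative ones. The negative values are therefore not separate evidence of pairing.

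The 3 genes and all gene lists were chosen with earlier results of these data known. Named genes were the 3, all genes of the cluster, near AT1G57630 and of TIR signalling, the other TIR genes past the threshold with the 2 highest and 2 lowest that were not, and the 3 nearest profiles of each gene. Alternatives covered the constant, filter, normalization, trend, array weights, block and leaving out each array. Combinations of the block with another scaling or no filter and leaving out both arrays of a number were chosen after seeing the data. Figures were drawn with matplotlib 3.10.9.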

Additional observations from a re-analysis of the deposited data

How the results depend on the processing

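The log2 differences of the 3 genes kept their sign under all alternatives run, and those of AT1G72890 and AT1G72900 moved by less than the spread between replicates. AT1G57630 moved beyond it with the constant, to 1.86 at the 25th percentile and 3.65 without one, the low wild-type values being the ones a constant alters. With 1 array left out, AT1G57630 ran from 2.56 to 3.30, AT1G72890 from 0.58 to 0.80 and AT1G72900 from 1.17 to 1.95. These fits had no block and keep the other array of that number unpaired.

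The replicate block moved the calls most. Over all probe sets, 71 higher and 4 lower became 839 and 530 with the replicate block, 836 and 606 with the block and quantile normalization, 803 and 534 with median centring, 864 and 528 with cyclic loess, and 622 and 292 with the block and no filter. With the block and both arrays of replicate 1, 2 or 3 left out there were 722, 496 and 670 higher and 398, 292 and 380 lower. Array weights gave 124 and 13, and no filter 1 lower. With 1 array left out the counts ran from 5 to 72 higher and from 0 to 3 lower, the 5 being reached without sni1 replicate 1 or sni1 replicate 2. Wild-type replicates 1 and 2 lowered the 71 to 36 and 40 when left out.

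The 1 other TIR gene that rose became 0 without the constant or the filter, and ran from 0 to 1 with 1 array left out. It became 6 with the block, also with quantile normalization, median centring or cyclic loess added, 4 with the block and no filter, and 6, 3 and 4 without both arrays of replicate 1, 2 or 3. The 0 signalling genes that rose became 2 in each fit with the block. No lower call appeared in either list in any fit run. With 1 array left out AT1G72870 ran from -0.18 (without wild-type replicate 3) to 0.64, and EDS1B (AT3G48080) from -0.31 to 0.47, turning negative without wild-type replicate 3 or sni1 replicate 1. The cause of these changes was not tested. Of the 39 tested TIR genes, those near the filter are the least certain, since signal over background cannot be read from these values.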
